A study of Caenorhabditis elegans with 2 samples.

Results

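Binding of the bZIP transcription factor CEBP-1 was described at 8 genes of the KGB-1 JNK cascade and of AP-1, namely svh-1, svh-2, mlk-1, mek-1, kgb-1, jnk-1, jun-1 and fos-1, out of 19973 nuclear protein-coding genes. The genes were taken by their symbols in the WBcel235 annotation, and a peak was given to a gene when its summit lay between 5 kb upstream of the annotated 5′ end and the 3′ end. Of the 5982 optimal peaks of the experiment, 21 fell in these regions. The experiment was a ChIP-seq of CEBP-1 in Caenorhabditis elegans, precipitated with an antibody to GFP. It held 1 group of 2 biological replicates, numbered 3 and 7. Both were whole young adults of strain OP563, pooled from males and females, collected 63 hours after synchronization as starved L1 larvae. The strain carries unc-119(tm4063) III and the transgene wgIs563, which expresses CEBP-1 with GFP and FLAG at its C-terminus. The promoter of the transgene is not given in the sources used here, and no untagged strain was analysed here. Whole animals were used, so the tissue in which a peak arose is unknown.

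KGB-1 is a mitogen-activated protein kinase of the JNK family that acts in axon regrowth after injury and in stress responses. In axon regrowth the growth factor SVH-1 activates the receptor tyrosine kinase SVH-2, which signals through the kinases MLK-1 and MEK-1 to KGB-1. JNK-1 is a separate JNK. FOS-1 and JUN-1 are the worm homologs of the AP-1 subunits Fos and Jun, bZIP factors like CEBP-1 itself. Transcription of svh-2 is known to be induced after axon injury by the Ets factor ETS-4 together with CEBP-1.

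Each peak carries the signal value that the authors' peak caller computed against a control file, and it is used only to rank and describe peaks within a list. Rank 1 is the strongest peak of a list. The optimal peaks are the 5982 strongest of the 30000 peaks in the pooled list of both replicates, and their median signal value was 298.5. Relative signal is the signal value of the matching summit in a replicate, within 100 bp, divided by the median over all optimal peaks matched in that replicate, 203.6 in replicate 3 and 111.7 in replicate 7. It is given as mean ± SD of the 2 replicates. The lists hold no read counts, so the depth is unknown, and with 1 group no test between conditions was possible.

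Of the 8 genes, 6 had an optimal summit in their region, against 30.5% of all protein-coding genes by the same rule. The number of summits was 10 at jun-1, 3 each at fos-1 and mlk-1, 2 each at svh-2 and mek-1, 1 at kgb-1 and 0 at svh-1 and jnk-1. The regions of the 8 genes covered 110.3 kb and held 0.190 summits per kb, beside 0.0662 per kb over all gene regions. Regions of the members were longer than the median region of 7.03 kb except at mek-1, and jun-1 supplied 10 of the 21 summits. By region length, 27.6% of all genes had a summit at 5 to 10 kb, the class of mek-1 and kgb-1. The share was 43.0% at 10 to 15 kb (svh-1, mlk-1 and jnk-1) and 47.8% at 15 to 20 kb (svh-2 and fos-1). At 20 to 30 kb (jun-1) it was 58.3%. In the promoter, taken as the 1000 bp before the 5′ end and the 200 bp after it, 4 of the 8 genes had a summit (svh-2, mlk-1, kgb-1 and jun-1), beside 14.9% of all protein-coding genes. When the 5′ end of any annotated transcript counted, the same 4 genes were found, beside 16.4% of all.

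**Figure D1:**
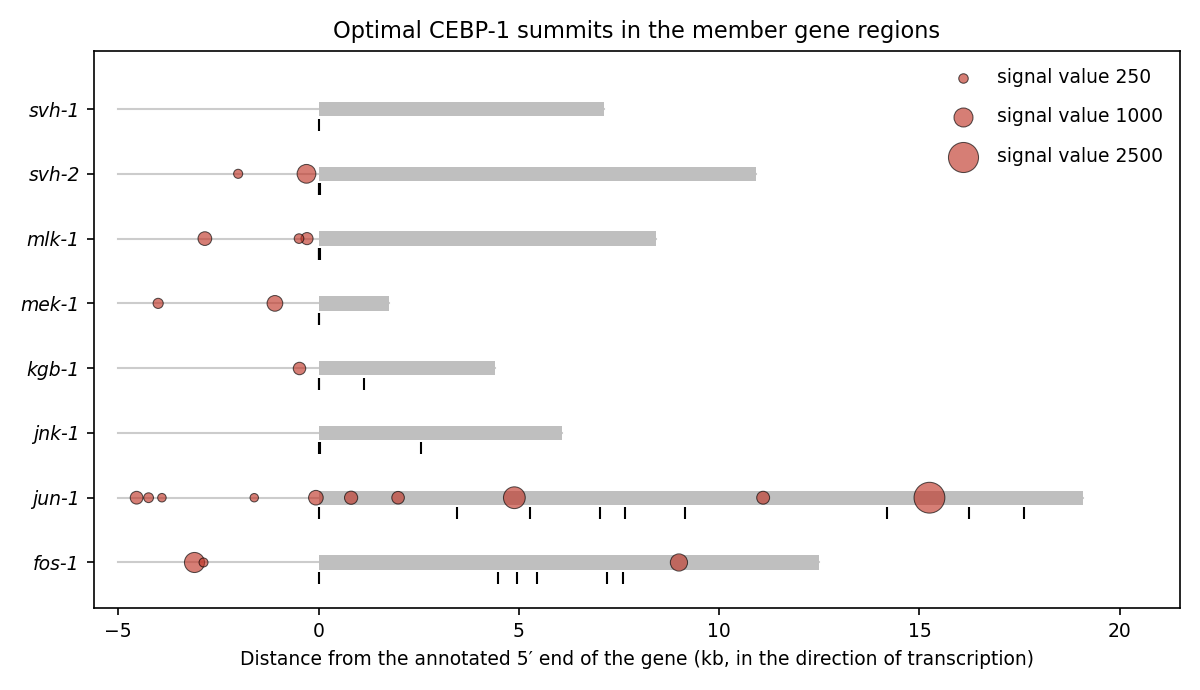
Optimal summits (red circles, area in proportion to the pooled signal value) by distance in kb from the annotated 5′ end of each member gene. Grey bars are gene bodies, grey lines the 5 kb upstream, and black ticks the annotated transcript starts. The 8 summits of svh-2, mlk-1, mek-1 and kgb-1 all lie upstream, while 5 of the 10 summits of jun-1 lie inside the gene.

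The gene of the growth factor, svh-1 (WBGene00006620, chromosome IV 8206614 to 8213741, plus strand, ce11), had no optimal summit and none among the 30000 peaks of the pooled list, as did 56.2% of protein-coding genes. Replicate 7 listed no summit in its 12.1 kb region. Replicate 3 listed 2, with signal values of 19.9 at rank 22094 and 15.1 at rank 25276, far below its rank of 5982. No binding at svh-1 was therefore listed above the weak end of 1 replicate.

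The receptor gene svh-2 (WBGene00020504, chromosome X 6553287 to 6564207, plus strand) had the strongest peak of the signalling genes. Its summit, 302 bp upstream of the 5′ end, had a signal value of 972 in the pooled list (rank 650), 564 in replicate 3 (rank 823) and 413 in replicate 7 (rank 520), a relative signal of 3.23 ± 0.658. Both replicates placed the summit within 23 bp of the pooled summit, and both ranked it in the strongest 1495 of their list. The summit 2008 bp upstream was weaker and less alike between the replicates, with 228.7 in the pooled list (rank 3939), 179 in replicate 3 (rank 3466) and 50.6 in replicate 7 (rank 8355, outside the strongest 5982). No other protein-coding 5′ end lay nearer to either summit than that of svh-2.

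The bases at the promoter summit of svh-2 (chrX:6552935-6553035, plus strand) and at the strongest upstream summits of mek-1 (chrX:7478108-7478208, plus strand) and kgb-1 (chrIV:410483-410583, minus strand, the strand of the gene) are shown because these are the strongest peaks of the receptor gene and of 2 of the kinase genes. Each window runs 50 bp to both sides of the summit, and capitals mark the 8 letters TTGCGAAA, the sequence that an earlier search of these same peaks had singled out.
svh-2: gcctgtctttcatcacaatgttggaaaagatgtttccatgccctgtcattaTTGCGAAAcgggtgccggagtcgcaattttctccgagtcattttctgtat
mek-1: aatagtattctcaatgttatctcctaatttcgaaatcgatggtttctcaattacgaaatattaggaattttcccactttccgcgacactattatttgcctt
kgb-1: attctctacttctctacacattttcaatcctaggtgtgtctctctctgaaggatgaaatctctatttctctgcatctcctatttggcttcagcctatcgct
The svh-2 window holds TTGCGAAA with its centre 5 bp from the summit. The other 2 windows hold none of the 7 fixed motifs described with the sequences of jun-1 and fos-1.

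The gene of the MAP kinase kinase kinase MLK-1 (WBGene00003374, chromosome V 5056378 to 5064811, minus strand) had 3 upstream summits. In the promoter the pooled list placed 1 summit at 289 bp with a signal value of 406 (rank 2108) and another at 488 bp with 256 (rank 3515), in the same interval. Replicate 7 gave both, at 130.9 (rank 2618) and 61.9 (rank 6390). Replicate 3 had 1 strong summit between them, 136 bp from the former and 63 bp from the latter, with a signal value of 289.9 at rank 2019, and a weak one 625 bp upstream at rank 26221. The placement of summits in this promoter thus differed between the replicates, while both listed a promoter summit among their strongest 5982. The third summit was the strongest, with 521 in the pooled list (rank 1557), 356 in replicate 3 (rank 1538) and 165 in replicate 7 (rank 1943), a relative signal of 1.61 ± 0.194. It lay 2839 bp from the 5′ end of mlk-1, inside the protein-coding gene Y58A7A.1, whose own 5′ end was nearer, at 1890 bp.

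The gene of the MAP kinase kinase MEK-1 (WBGene00003185, chromosome X 7479248 to 7481005, plus strand) had its main summit 1090 bp upstream, just beyond the promoter limit. It had 682 in the pooled list (rank 1072), 451 in replicate 3 (rank 1116) and 242 in replicate 7 (rank 1130). The replicates were close here, at a relative signal of 2.19 ± 0.0315. A second summit, 4005 bp upstream, had 285.5 in the pooled list (rank 3140) and 247 in replicate 3 (rank 2433). Replicate 7 had no summit within 100 bp of it, and its nearest was 179 bp away at rank 8596. This summit lay only 225 bp from the 5′ end of coh-1, which encodes a cohesin subunit.

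The gene of the kinase KGB-1 itself (WBGene00002187, chromosome IV 405621 to 410035, minus strand) had 1 optimal summit, 498 bp upstream. Its signal value was 429 in the pooled list (rank 1966), 341 in replicate 3 (rank 1645) and 98.0 in replicate 7 (rank 3644), a relative signal of 1.27 ± 0.563. The summit was in the strongest 5982 of both replicates but stood above the replicate's median optimal peak in replicate 3 (1.67) and below it in replicate 7 (0.877). The 5′ end of the divergent neighbour T07A9.12 was nearer, at 334 bp, than that of kgb-1. Replicate 3 alone listed summits inside kgb-1, one 925 bp downstream of the 5′ end with 158 at rank 3931 and a weaker one at 247 bp (rank 16230).

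In contrast to kgb-1, the JNK gene jnk-1 (WBGene00002178, chromosome IV 6957641 to 6963719, plus strand) had no summit at all in its region of 11.1 kb, in the pooled list or in the list of either replicate. The same held for 44.4% of protein-coding genes. A list of fixed length does not show that binding was absent.

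Among the 8 genes, jun-1 (WBGene00012005, chromosome II 9113157 to 9132231, plus strand) had the most and the strongest peaks. Its 10 optimal summits put it among 10 of the 19973 protein-coding genes, 0.0501%, with 10 or more. Its region of 24.1 kb is long. Of 288 genes with regions from 20 to 30 kb, 58.3% had an optimal summit, the median was 1 summit and 5 had 10 or more. At 0.415 summits per kb it exceeded mek-1 (0.296), mlk-1 (0.223), fos-1 (0.172), svh-2 (0.126) and kgb-1 (0.106).

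The strongest peak of jun-1 lay in an intron, 15251 bp downstream of the 5′ end of the gene and 983 bp upstream of the start of a shorter annotated transcript. Its signal value was 2627 in the pooled list (rank 109), 1720.0 in replicate 3 (rank 110) and 908 in replicate 7 (rank 126), a relative signal of 8.29 ± 0.230. The replicate summits were 1 and 8 bp from the pooled summit, so the peak was alike in place, rank and relative height. The next strongest was intronic as well, 4888 bp downstream of the gene's 5′ end and 378 bp upstream of another transcript start, with 1312 in the pooled list (rank 384), 689 in replicate 3 (rank 597) and 636 in replicate 7 (rank 242). Its relative signal was 4.54 ± 1.63, higher in replicate 7 (5.69) than in replicate 3 (3.38).

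The summit nearest the annotated 5′ end of jun-1, 67 bp upstream, had 592 in the pooled list (rank 1307), 448 in replicate 3 (rank 1130) and 161 in replicate 7 (rank 1996). Its relative signal of 1.82 ± 0.535 was thus lower than that of both intronic peaks in each replicate. The 3 other intronic summits, at 812, 1985 and 11099 bp, had relative signals from 1.43 to 1.61. In all, 3 of the 10 summits lay in the promoter of some annotated jun-1 transcript, at 67, 378 and 983 bp upstream of a start. The annotation gives jun-1 9 transcripts with 9 different starts. Which of them were in use in these animals was not measured here.

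The 4 summits farther upstream of jun-1 had relative signals from 0.514 to 1.42. The nearest protein-coding 5′ end was that of another gene for 3 of them. The summit 4543 bp upstream lay 14 bp from the 5′ end of dnj-23, a DnaJ-domain gene, and the one at 4244 bp lay 313 bp from it. The summit at 4244 bp was also the least alike, at 68.6 (rank 8302) in replicate 3 and 197 (rank 1505) in replicate 7. The matched summit of replicate 3 lay 98 bp from the pooled summit, at the edge of the 100 bp matching distance. That of replicate 7 lay 1 bp from it, so the replicates differed in place as well as in height. The summit at 3911 bp lay 288 bp from the 5′ end of T24H10.4. Counted for the nearest 5′ end only, jun-1 kept 5 summits. The 3 upstream summits near dnj-23 and T24H10.4 were then lost. So were the intronic peaks at 11099 and 15251 bp, whose nearest gene 5′ end was that of C16D2.1, 7407 and 3255 bp away. Starts of shorter jun-1 transcripts lay nearer to these 2 peaks, at 1943 and 983 bp, but were not counted by that rule.

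**Figure D2:**
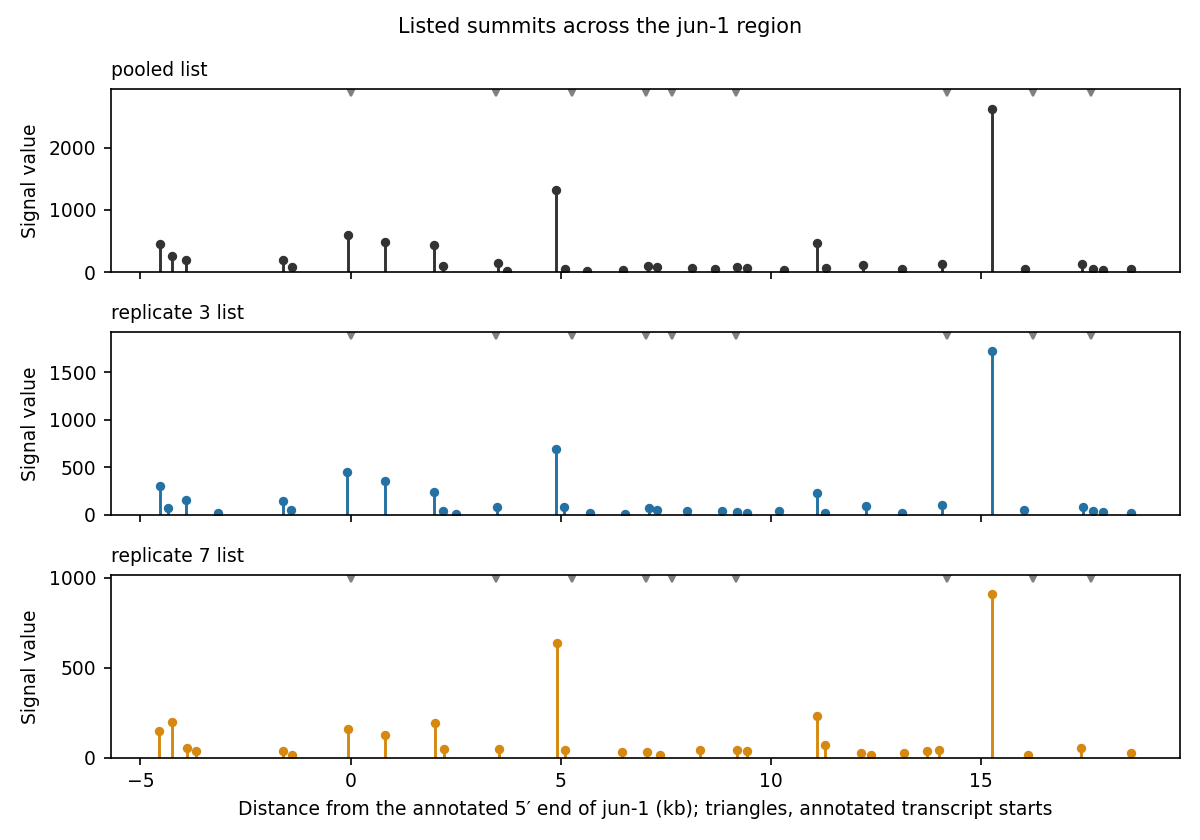
Signal values (vertical axis, own scale in each panel) of all listed summits in the jun-1 region, by distance in kb from its annotated 5′ end, in the pooled list and in the lists of replicates 3 and 7. Triangles are annotated transcript starts. In each list the 2 highest summits are the intronic ones 15251 and 4888 bp downstream.

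The other AP-1 gene, fos-1 (WBGene00001345, chromosome V 6003601 to 6016087, plus strand), had 3 optimal summits and none in its promoter. The strongest lay 3098 bp upstream, with 1114 in the pooled list (rank 509), 845 in replicate 3 (rank 401) and 262 in replicate 7 (rank 1023), a relative signal of 3.25 ± 1.28. A weaker summit 2872 bp upstream, in an overlapping interval, had 223 in the pooled list (rank 4035), 168 in replicate 3 (rank 3693) and 145.6 in replicate 7 (rank 2266). The third lay in an intron 8997 bp downstream of the 5′ end, with 818 in the pooled list (rank 857), 465 in replicate 3 (rank 1074) and 349 in replicate 7 (rank 681). Its relative signal was 2.70 ± 0.592, and the nearest protein-coding 5′ end was that of the proteasome gene rpt-2, 5071 bp away, while the nearest fos-1 transcript start was 1387 bp away. All 3 were among the strongest 5982 of both replicates. The order of the 2 strong peaks by relative signal turned between the replicates. It was 4.15 upstream against 2.28 in the intron in replicate 3, and 2.35 against 3.12 in replicate 7. Which of the 2 was higher was therefore not settled.

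**Figure D3:**
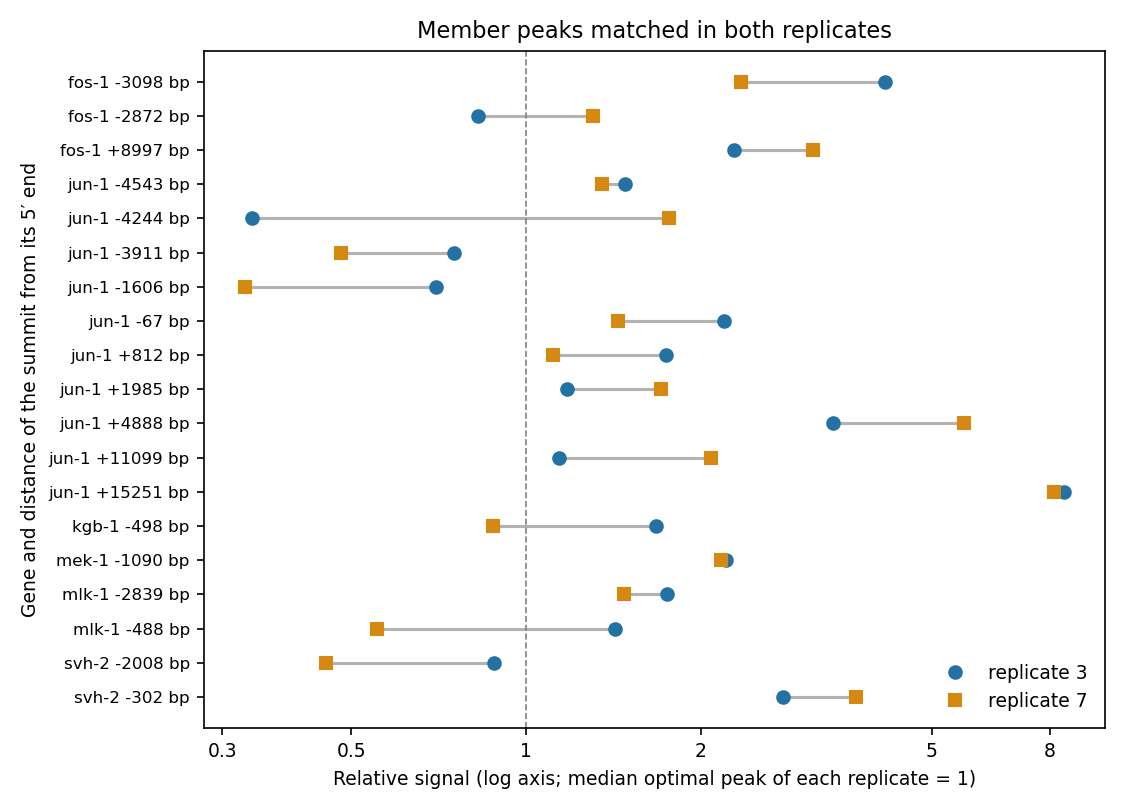
Relative signal (horizontal log axis; the median optimal peak of each replicate is 1, dashed line) in replicate 3 (circles) and replicate 7 (squares) for the 19 member summits matched in both, named by gene and distance from its 5′ end. The jun-1 summit at 15251 bp is highest in both replicates, and that at 4244 bp upstream shows a wide gap, 0.337 against 1.76. For the latter, the matched summit of replicate 3 lay 98 bp from the pooled summit.

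Over the 21 member summits, 19 had a summit among the strongest 5982 peaks of replicate 3, beside 85.3% of all optimal peaks, and 16 did in replicate 7, beside 72.1%. Both replicates held 14 of the 21, beside 60.2% of all, and none was in neither. These shares were near those of all optimal peaks. By rank, 7 of the 21 were in the strongest 1495 and 14 in the stronger 50% of the optimal list.

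The sequence TTGCGAAA lay within 50 bp of 8 of the 21 member summits, beside 14.9% of all optimal summits. The motif was found by an earlier search of these same peaks, so its share here is a description. Of the 8 summits, 6 were at jun-1, 1 at fos-1 and 1 at svh-2, and none was at mlk-1, mek-1 or kgb-1. All optimal peaks held it more often when strong, at 35.1% of the strongest 25% and 5.55% of the weakest 25%. Of the 7 member summits in the strongest 25%, 4 held it. Of the 8 sites, 5 are printed with 10 bases on both sides, read in the direction of the motif. The jun-1 sites at 4543 bp upstream and at 1985 and 11099 bp downstream are left out. Just before the motif they have G, C and G. The printed sites all have an A there, so as a set they overstate how far the surroundings are shared. They lie at chrX:6552976-6553003 (svh-2), chrII:9128412-9128439 (jun-1 at 15251 bp), chrII:9118042-9118069 (jun-1 at 4888 bp), chrII:9108912-9108939 (jun-1, 4244 bp upstream) and chrV:6012601-6012628 (fos-1), the second on the minus strand and the rest on the plus strand.
svh-2, 302 bp upstream: cctgtcattaTTGCGAAAcgggtgccgg
jun-1, 15251 bp downstream: ttcgaaataaTTGCGAAAcgaacaggtt
jun-1, 4888 bp downstream: atggtaactaTTGCGAAAttagtattga
jun-1, 4244 bp upstream: gggttaactaTTGCGAAAtttttttatt
fos-1, 8997 bp downstream: aacagtggcaTTGCGAAAttagtcacca
The sites of the jun-1 peaks at 4888 bp and 4244 bp upstream shared 16 letters in a row, and those of jun-1 at 4888 bp and fos-1 shared 14. These were the longest runs among all pairs of the 8 member sites. Every other pair shared 8 to 11 letters, of which 8 are the motif itself. Shared runs among all optimal sites are not given here. An A came just before the motif at 5 of the 8 member sites, beside 64.1% of the 924 sites at all optimal summits, and a T just after it at 4 of 8, beside 76.8%. Member sites lay a median of 15 bp from the summit, against 14.5 bp for all.

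The windows of the 2 strongest jun-1 peaks (chrII:9128358-9128458 and chrII:9117995-9118095, plus strand), of the jun-1 5′ end (chrII:9113040-9113140, plus strand) and of the 2 upstream fos-1 peaks (chrV:6000453-6000553 and chrV:6000679-6000779, plus strand) are given in full, since they hold the strongest peaks of the AP-1 genes, the peak at the jun-1 5′ end and the matches to the AP-1 site and the cyclic AMP response element. Capitals mark every match to the 7 fixed motifs.
jun-1, 15251 bp downstream: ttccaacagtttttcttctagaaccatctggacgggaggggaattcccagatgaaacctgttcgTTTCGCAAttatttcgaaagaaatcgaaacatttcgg
jun-1, 4888 bp downstream: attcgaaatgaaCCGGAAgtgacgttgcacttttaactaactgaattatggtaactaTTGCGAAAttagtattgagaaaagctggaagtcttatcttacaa
jun-1, 67 bp upstream: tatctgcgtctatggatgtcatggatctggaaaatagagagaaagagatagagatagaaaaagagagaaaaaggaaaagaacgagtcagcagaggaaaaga
fos-1, 3098 bp upstream: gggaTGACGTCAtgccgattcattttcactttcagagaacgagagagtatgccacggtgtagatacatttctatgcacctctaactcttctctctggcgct
fos-1, 2872 bp upstream: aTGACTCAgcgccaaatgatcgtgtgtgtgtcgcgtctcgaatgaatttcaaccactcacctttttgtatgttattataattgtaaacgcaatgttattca
The 15251 bp window holds TTGCGAAA on the minus strand (TTTCGCAA as printed). The 4888 bp window holds TTGCGAAA together with the Ets-type sequence CCGGAA, 35 bp from the summit. The window at the jun-1 5′ end holds no fixed motif. The stronger fos-1 window holds the cyclic AMP response element TGACGTCA 42 bp from the summit, and the weaker one the AP-1 site TGACTCA at 46 bp, both close to the window's edge.

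The 7 motifs were searched on both strands. The AP-1 site (TGACTCA or its reverse complement TGAGTCA) was at 1 of the 21 summits, beside 1.81% of all optimal summits, and the cyclic AMP response element TGACGTCA at 1, beside 1.0%. The E-box CACGTG was at 1, the jun-1 summit at 812 bp, beside 5.52%, and the Ets-type sequence CCGGAA at 1, beside 2.83%. Shorter or other Ets-type sequences were not searched. The C/EBP core (TTGCGCAA, TTGCGTAA, TTACGCAA or TTACGTAA) was at none, beside 1.27%, and the C/EBP and ATF composite TGATGCAA at none, beside 0.819%. TTGCGAAA shares its start with 2 forms of the C/EBP core, but no match to 1 motif is a match to another. Any of the 7 was at 11 of the 21, beside 25.6%. Of these 11 summits, 8 held TTGCGAAA, the motif found by the earlier search of these same peaks. A match is a run of letters and not a measured binding site.

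**Figure D4:**
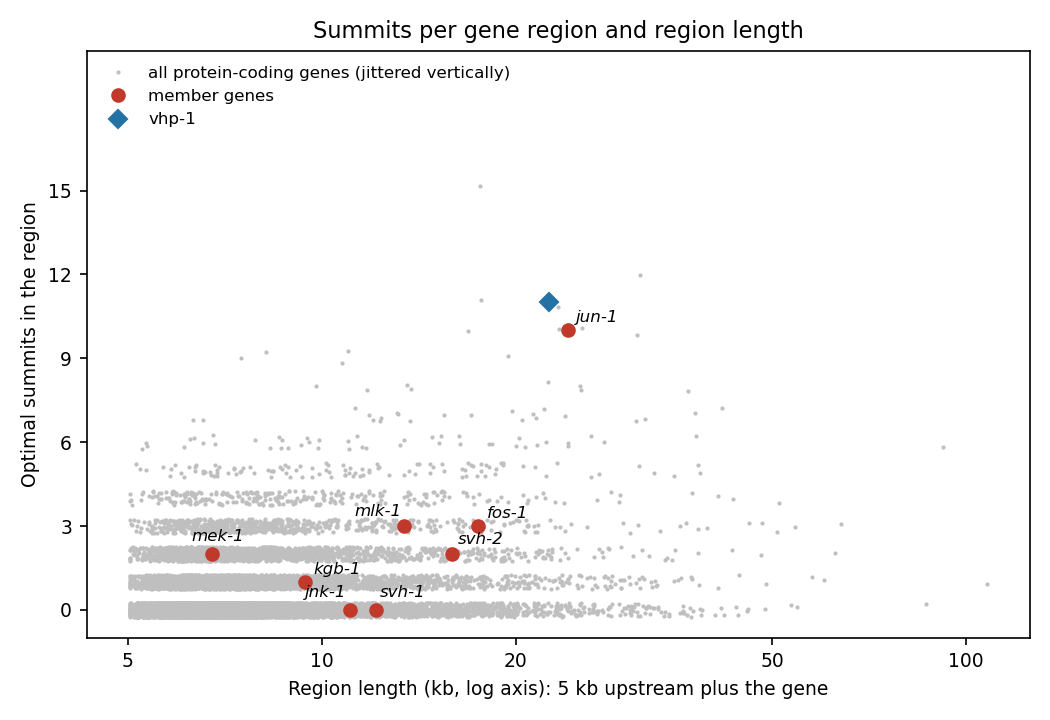
Number of optimal summits (vertical axis) against region length in kb (log axis) for all 19973 protein-coding genes (grey, jittered vertically), the 8 member genes (red) and vhp-1 (blue). Longer regions hold more summits, and jun-1 with 10 and vhp-1 with 11 lie near the top for their length.

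Another 26 genes of KGB-1 and JNK-1 signalling, in a list chosen with earlier results of these data known, were read by the same rule. Of these, 16 had an optimal summit in the region, beside 30.5% of all protein-coding genes, and 7 had one in the promoter, beside 14.9%. The 30.5% is not matched for region length, and the listed regions ran from 5.25 kb (kreg-1) to 43.5 kb (kin-1). Among all genes the share with a summit rose with length, from 27.6% at 5 to 10 kb to 58.3% at 20 to 30 kb. The promoter summits were those of egl-30, a Gq alpha subunit (63 bp upstream, rank 472, relative signal 3.46 ± 0.860), unc-16, a JIP3 scaffold (95 bp, rank 1062, 1.98 ± 0.933), ets-4, the Ets factor named with svh-2 (101 bp, rank 2247, 1.13 ± 0.568), and ced-5, a Rac activator (183 bp, rank 2280, 1.06 ± 0.733). The other 3 were jkk-1, the kinase of JNK-1 (72 bp, rank 2940, with no relative signal because it was not matched within 100 bp in both replicates), kgb-2, a close relative of kgb-1 (305 bp, rank 3056, 0.961 ± 0.222), and max-2, a PAK-type kinase (353 bp, rank 4340, 0.658 ± 0.0545).

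Singled out after their values were seen, vhp-1 and rho-1 had the most summits of the list. The gene vhp-1 encodes the phosphatase that inactivates KGB-1. It held 11 summits in 22.6 kb, 9 of them in introns, the strongest 1443 bp upstream (rank 155, relative signal 6.85 ± 0.183), and TTGCGAAA was at 3 of the 11, beside 14.9% of all optimal summits and 35.1% of the strongest 25%. With jun-1 it was thus among the 10 genes with 10 or more summits. For the vhp-1 summits 12805, 13764 and 15165 bp downstream, the nearest protein-coding 5′ end was that of F09E5.14. The gene rho-1, of a small GTPase, had 7 summits, the strongest 2455 bp upstream (rank 140, 7.32 ± 0.314), with TTGCGAAA at 2 of the 7, beside the same shares. No optimal summit was found in the regions of cebp-1, ced-10, ddr-2, dgk-1, faah-1, kreg-1, mig-2, rhgf-1, shc-1 or tpa-1.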

How the data were processed

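Peak lists on ce11 were analysed for 2 ChIP-seq replicates. Per the text files deposited with them, each list of 30000 peaks was derived by the authors from the alignments of a replicate, or of both pooled, and 1 control file, and the optimal list by thresholding on the irreproducible discovery rate. Its threshold, the peak caller and the aligner are not given in the sources used here. The deposited signal value per peak is relative to the control. The deposited −log10 q-value is capped at 1 highest value per list and was not used for ranking. The lists on ce10 were not used here.

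Genes came from Ensembl release 115 (WBcel235, the same sequence as ce11), and bases from the RefSeq WBcel235 genome. Mitochondrial genes were left out. Coordinates are 1-based. Regions, promoters, summit matches (100 bp) and motif windows (50 bp on each side) were computed with Python 3.11.15, pandas 2.3.3 and numpy 2.4.6, after tests on simulated peaks. The 8 genes, the further list of 26, the motifs and the alternatives were chosen with earlier results of these data known. All optimal peaks of the 8 genes are named, with list genes that had a promoter summit and genes whose 5′ end lay nearer to a peak. The replicates come from separate biosamples, and their spread is the only error given. Alternatives were other upstream reaches, promoters, distances, windows, stronger peaks, the nearest gene, 1 summit per interval and each replicate alone.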

Additional observations from a re-analysis of the deposited data

How the results depend on the processing

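The number of genes with a summit in the region stayed at 6 under every alternative run except nearest 5′ end only, which gave 5 (without kgb-1). The number with a promoter summit ranged from 4 to 5. With promoters of 2000 bp upstream mek-1 was added. It was also added without replicate 7, through another summit 555 bp upstream at rank 5590 of replicate 3. Shares of all protein-coding genes by the same rules ran from 17.8% to 39.5% for the region and from 9.16% to 19.2% for the promoter. An unchanged count of members thus did not stand beside an unchanged share. The 21 summits became 13 with 2 kb upstream and 12 when a summit counted for the nearest 5′ end only, by construction, as fewer positions count. They ranged from 18 to 22 when 1 replicate was left out. Summits with any fixed motif fell from 11 to 7 with 25 bp on each side, since fewer bases are read. The share of all optimal summits fell from 25.6% to 18.0% with it. Relative signal of the strongest mek-1 peak was 2.07 with a matching distance of 50 bp and 2.16 with 200 bp, and that of jun-1 was 7.82 with 50 bp, as the median is then taken over another set of matched peaks. The remaining alternatives moved counts by no more than 1.5 times, and the other matching distances moved the remaining relative signals by no more than 1 SD. With 2 replicates, leaving out 1 gives the value of the other, which says nothing about stability: the strongest peak of kgb-1 was then 0.877 or 1.67 and that of fos-1 2.35 or 4.15. No paired analysis was possible because the series holds 1 group. Depth is unknown, so weak or missing summits at svh-1 and jnk-1 cannot be told apart from limited depth.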
